A study of Mus musculus with 26 samples.

Results

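The miRNAs mmu-mir-1247, mmu-mir-184, mmu-mir-7080, mmu-mir-6540, mmu-mir-31 and mmu-mir-3475 were described across small RNA libraries of the mouse hippocampus. They are 6 of the 1054 miRNA entries of a table with 1360 small RNA entries, and they were selected on the control libraries, chosen by counts that were lower in the dorsal hippocampus (dHC) than in the ventral hippocampus (vHC) of control mice. The control libraries therefore chose them, and their region difference in control mice is given as a description with no test. The rule for the choice used no library of mice that swam, and these libraries carry the tests, although earlier results of all libraries were known when the miRNAs were picked.

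The mice were C57BL/6J males of 2 to 3 months. Control mice stayed in the homecage, and swim mice were put in water of 18 °C for 6 min and their tissue was taken 45 mins after the start. Of the 26 libraries, 14 were from control mice (8 vHC and 6 dHC) and 12 from swim mice (6 of either region), spread over 3 processing blocks that each held all 4 groups. Labels do not say which libraries of different regions came from 1 mouse, or that libraries of a group came from separate mice, so p-values measure the spread between these samples.

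A miRNA is cut out of a hairpin transcript, in most cases by Drosha in the nucleus and then by Dicer in the cytoplasm, and 1 strand of the resulting duplex is loaded into an Argonaute protein. It finds its target mRNAs mainly through its seed, bases 2 to 8 from the 5′ end, and lowers their stability and translation. The dorsal hippocampus is known for its part in spatial memory and the ventral hippocampus for its part in emotional behavior, and the regions differ in connections and gene expression.

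Mature sequences were found in RefSeq (GRCm38.p6) for all 6 miRNAs, 11 in total, and are shown because the seed sets which mRNAs a miRNA can pair with. The table counts a whole hairpin entry, so the share of each arm is not known and both arms are given where RefSeq has them. Capitals mark the seed.
mmu-miR-1247-5p: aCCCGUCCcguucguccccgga
mmu-miR-1247-3p: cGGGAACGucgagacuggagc
mmu-miR-184-5p: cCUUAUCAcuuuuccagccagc
mmu-miR-184-3p: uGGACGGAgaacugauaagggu
mmu-miR-7080-5p: gUAGGAGCuggagguggguuugg
mmu-miR-7080-3p: cAGGCUCAccccuccguucccu
mmu-miR-6540-3p: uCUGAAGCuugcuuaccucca
mmu-miR-31-5p: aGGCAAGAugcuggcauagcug
mmu-miR-31-3p: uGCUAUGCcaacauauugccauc
mmu-miR-3475-5p: aAAUCAUGuacccccacagagg
mmu-miR-3475-3p: uCUGGAGGcacaugguuugaa
No seed was shared between different members, so the 6 miRNAs form no seed family. Among 1738 mature mouse sequences of the RefSeq table, the seed AAUCAUG of mmu-miR-3475-5p was also that of mmu-miR-96-3p, and no other member had a seed relative. The entry mmu-mir-96 had 104 counts in the 26 libraries together and was too low to be tested. Of 50 pairs of mature sequences from different members, 1 shared a word of 7 bases: CUGGAGG, the seed of mmu-miR-3475-3p, also lies in mmu-miR-7080-5p.

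The 6 hairpins lie on 6 chromosomes, so they are not neighbours that share a transcript. Positions are those of GRCm38, and gene models are those of GENCODE vM21 unless RefSeq is named. The hairpin of mmu-mir-1247 is at chr12:110278048-110278129 on the minus strand. It overlaps an exon of Dio3os, a long noncoding RNA. The RefSeq model of Dio3os, from 110275384 to 110278068, covers only part of the hairpin. It is 939 bases from Dio3 on the opposite strand, which encodes a deiodinase that inactivates thyroid hormone. The hairpin of mmu-mir-184 is at chr9:89802260-89802328 on the minus strand, in no annotated gene, and the long noncoding RNA 1700017I07Rik is 542 bases away on the other strand.

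The hairpin of mmu-mir-7080 is at chr8:123130106-123130172 on the plus strand, inside Cpne7, which encodes a copine, a calcium-dependent membrane-binding protein. Its 67 bases are those of intron 12 of the Cpne7 transcript ENSMUST00000037900.8, from the first to the last base, and it also lies in an intron of Gm20388, a gene model that spans this one. Its sequence is shown because it starts and ends with the letters of a spliced intron, GU and AG, which are in capitals.
mmu-mir-7080 hairpin: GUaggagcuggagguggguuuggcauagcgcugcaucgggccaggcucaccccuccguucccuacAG
Hairpins that span a whole short intron are known as mirtrons, and splicing can take the place of the Drosha cut for them. The counts do not show which way this hairpin was made. The 1 other hairpin within 50 kb of any member is that of mmu-mir-7079, and its entry had 15 counts in the 26 libraries together, which was too low to be tested.

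The hairpin of mmu-mir-6540 is at chr16:42303362-42303469 on the minus strand, in intron 1 of Gap43, on the strand of that gene. Gap43 encodes a protein of growing axons and presynaptic endings. The hairpin of mmu-mir-31, a miRNA best known from epithelia and tumours, is at chr4:88910557-88910662 on the minus strand. It overlaps an exon of the long noncoding RNA AL805899.1. The hairpin of mmu-mir-3475 is at chrX:140310948-140311012 on the plus strand, in no GENCODE gene, while RefSeq has it within Frmpd3, a gene for a protein with FERM and PDZ domains, and within the long noncoding RNA Gm32113. The GC content of the hairpins was 74.4% for mmu-mir-1247, 64.2% for mmu-mir-7080 and between 46.4% and 50.9% for the other 4, against a median of 51.7% over 1005 mouse hairpins.

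The miRNA counts per library ranged from 465387, in control dHC library 24, to 4819716, with group medians between 2323948.5 and 3054603. The neuronal entry mmu-mir-124-1 had at least 11493 normalized CPM (counts per 1000000 miRNA counts, with TMM scaling, the unit of all levels here) in every library. The 6 miRNAs together made up 0.0494% to 0.0778% of the miRNA counts of a vHC library and 0.0170% to 0.0360% of those of a dHC library, so they are a small part of the miRNA pool of either region.

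The levels of all 6 miRNAs were higher in vHC than in dHC of swim mice, by 1.90-fold to 7.86-fold in edgeR's quasi-likelihood fit with block as a term. All 6 passed an adjusted p of 0.05 (Benjamini-Hochberg over 440 entries), where 53 of the 440 entries, or 12%, were called lower in dHC and 34 were called higher. The number of entries called lower was 34 without block 2 and 27 without block 3, and the 6 miRNAs were called in either case. Each of the 6 had every vHC swim library above every dHC swim library, a separation seen in 22 of the 440 entries, or 5%. An exact permutation of the region labels within blocks gave p = 0.009259 (two-sided) for each of the 6, the smallest that 216 arrangements allow. The full separation of the swim libraries already sets this p, so the permutation adds no further support.

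The filter on low counts asked for 3.73 CPM in enough libraries. The level of mmu-mir-1247 reached this in 3 of 6 dHC and 6 of 6 vHC swim libraries. It was thus tested through its vHC level, and its dHC level alone would not have passed. The other 5 reached it in all 12 swim libraries. Without the filter, mmu-mir-1247 was also called lower in dHC.

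**Figure D1:**
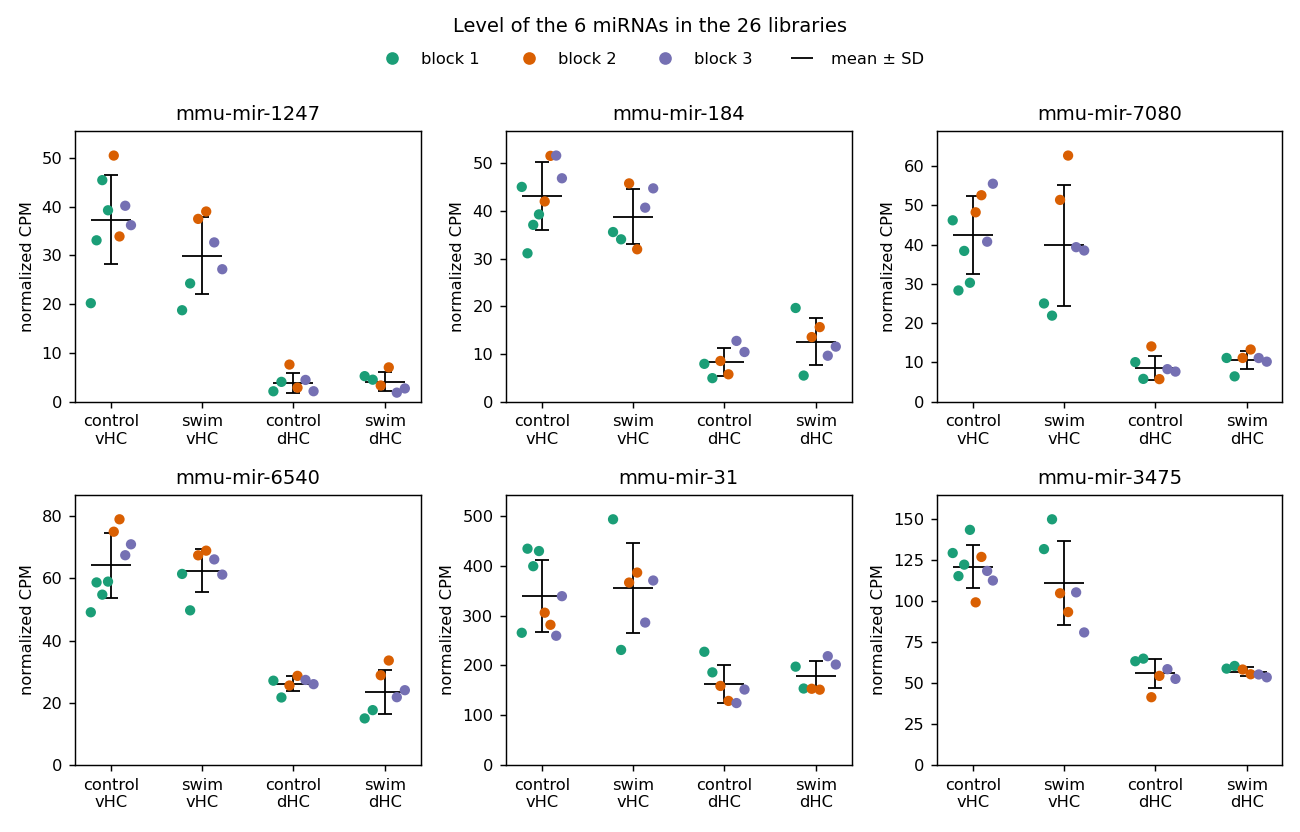
Normalized CPM (vertical axis, from 0) of each of the 6 miRNAs in the 26 libraries, by group, with points coloured by block and bars for the mean ± SD. In each panel the lowest of the 14 vHC libraries lies above the highest of the 12 dHC libraries, with the narrowest gap for mmu-mir-31 (231 against 227). This follows in part from the choice of the miRNAs on the control libraries. In the swim libraries alone 22 of 440 entries were separated, and the share over all 26 libraries was not computed.

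mmu-mir-1247, the entry next to Dio3, differed most between the regions in the fit with block. With 2 surrogate variables in place of block, the difference of mmu-mir-7080 was larger in swim mice (log2 -3.83 ± 0.52 against -3.44 ± 0.85, SE). The same held in control mice (-4.12 ± 0.55 against -3.56 ± 0.89, SE). Region explained 92.2% of the variance of the second surrogate variable, so region and that variable can hardly be told apart there. The level of mmu-mir-1247 in swim vHC had a lowest value of 18.7, a median of 29.9 and a highest value of 39.0 CPM. In swim dHC these were 1.85, 3.91 and 7.03 CPM. The groups did not overlap, and the highest dHC library stayed well under the lowest vHC library. The counts behind these values were 48 to 127 per vHC library and 8 to 14 per dHC library, so the dHC level rests on few molecules. The log2 difference, dHC minus vHC, was -2.97 ± 0.27 (SE, n = 6 and 6; adjusted p = 9.085e-07, edgeR). This is 7.86-fold (95% interval 5.28 to 11.7) and ranked first of the 440 entries both by size and by p. The entry was among these 440 only through its vHC level, so its p and rank carry that limit. With no filter on low counts the difference was -2.92 ± 0.26 (SE).
In control mice mmu-mir-1247 had 20.2, 37.7 and 50.5 CPM (lowest, median, highest) in vHC and 2.13, 3.46 and 7.61 CPM in dHC, a log2 difference of -3.18 ± 0.28 (SE). Library 24, the shallowest, held 1 count of it. Within blocks 1, 2 and 3 the difference of mean log2(CPM + 1) was -3.10, -2.88 and -3.24 in control and -1.93, -2.74 and -3.24 in swim mice. In swim mice the region difference was thus present in every block, with its smallest value in block 1. The control values are those of the libraries that chose the miRNA, so their sign is no separate evidence.

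mmu-mir-7080, the hairpin that is a whole intron of Cpne7, had 21.9, 38.9 and 62.6 CPM (lowest, median, highest) in swim vHC and 6.44, 11.1 and 13.3 CPM in swim dHC. The groups did not overlap. The spread among vHC libraries followed the blocks, with both swim libraries of block 1 lowest and both of block 2 highest. The log2 difference was -1.87 ± 0.19 (SE, n = 6 and 6; adjusted p = 3.453e-06, edgeR), or 3.66-fold (95% interval 2.78 to 4.82). With 2 surrogate variables in place of block it was -3.83 ± 0.52 (SE; adjusted p = 3.298e-05, edgeR), in a fit where region and the second variable can hardly be told apart.
In control mice its level was 28.3, 43.4 and 55.5 CPM in vHC and 5.74, 7.96 and 14.1 CPM in dHC, a log2 difference of -2.20 ± 0.20 (SE). The within-block differences of mean log2(CPM + 1) were -2.06, -2.35 and -2.44 in control and -1.36, -2.13 and -1.78 in swim mice for blocks 1, 2 and 3. Other miRNAs with nearby numbers in miRBase were mostly rare here: of 185 entries 4 were tested, and 0 were called in edgeR, with 0 at an unadjusted p under 0.05 and 0 called by DESeq2. The 3 with the smallest p had log2 differences of 0.28 (mmu-mir-6944), -0.07 (mmu-mir-6948) and 0.04 (mmu-mir-7047).

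mmu-mir-184, a miRNA known from neural stem cells and the lens, had 31.9, 38.1 and 45.7 CPM (lowest, median, highest) in swim vHC and 5.47, 12.5 and 19.6 CPM in swim dHC. The groups did not overlap, and the dHC libraries spread more widely for their level than the vHC libraries. The log2 difference was -1.68 ± 0.24 (SE, n = 6 and 6; adjusted p = 0.0001192, edgeR), or 3.21-fold (95% interval 2.27 to 4.54).
In control mice mmu-mir-184 had 31.1, 43.5 and 51.6 CPM in vHC and 4.93, 8.23 and 12.7 CPM in dHC, a log2 difference of -2.35 ± 0.17 (SE). The within-block differences of mean log2(CPM + 1) were -2.41, -2.57 and -2.002 in control and -1.63, -1.34 and -1.92 in swim mice for blocks 1, 2 and 3. In each block the value was nearer to 0 in swim than in control mice. The same held for mmu-mir-7080 and not, in every block, for the other 4 members, and it was not tested because the control libraries had chosen the miRNAs.

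mmu-mir-6540, from the first intron of Gap43, had 49.7, 63.7 and 68.8 CPM (lowest, median, highest) in swim vHC and 15.1, 22.97 and 33.6 CPM in swim dHC. No dHC library reached the lowest vHC library. The log2 difference was -1.42 ± 0.17 (SE, n = 6 and 6; adjusted p = 1.601e-05, edgeR), or 2.68-fold (95% interval 2.09 to 3.45).
In control mice its level was 49.0, 63.1 and 78.8 CPM in vHC and 21.8, 26.6 and 28.7 CPM in dHC, and the log2 difference was -1.29 ± 0.13 (SE). The control dHC libraries lay close together, with a mean of 26.1 ± 2.39 CPM (SD, n = 6). The within-block differences of mean log2(CPM + 1) were between -1.47 and -1.15 in control and between -1.70 and -1.10 in swim mice.

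mmu-mir-31 was the most abundant of the 6 and had 231, 368 and 492.5 CPM (lowest, median, highest) in swim vHC and 152, 176 and 219 CPM in swim dHC. The groups did not overlap, but in block 1 the lowest vHC library, at 231 CPM, was close to the highest dHC library, at 198 CPM. The log2 difference was -0.98 ± 0.16 (SE, n = 6 and 6; adjusted p = 0.0006142, edgeR), or 1.97-fold (95% interval 1.55 to 2.51). With 2 surrogate variables in place of block it was -2.02 ± 0.34 (SE; adjusted p = 0.0004581, edgeR), with the same limit as for mmu-mir-7080.
In control mice mmu-mir-31 had 259, 322 and 433.7 CPM in vHC and 125, 155 and 227 CPM in dHC, a log2 difference of -0.94 ± 0.14 (SE). The within-block differences of mean log2(CPM + 1) were between -1.10 and -0.86 in control and between -1.30 and -0.63 in swim mice. The region difference thus kept its sign in each block of the swim mice, which the choice of the miRNA did not use.

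mmu-mir-3475, the X-linked member, had 80.9, 105 and 150 CPM (lowest, median, highest) in swim vHC and 53.6, 56.9 and 60.5 CPM in swim dHC. The dHC libraries were tightly grouped, at 57.0 ± 2.62 CPM (SD, n = 6), and all lay under the vHC libraries. The log2 difference was -0.93 ± 0.15 (SE, n = 6 and 6; adjusted p = 0.0005678, edgeR), or 1.90-fold (95% interval 1.52 to 2.38).
In control mice its level was 99.2, 120 and 143 CPM in vHC and 41.5, 56.5 and 65.0 CPM in dHC, with a log2 difference of -1.05 ± 0.13 (SE). The within-block differences of mean log2(CPM + 1) were between -1.22 and -0.97 in control and between -1.22 and -0.75 in swim mice. Among the alternatives tried this was the 1 member whose call was lost: with 2 surrogate variables in place of block its swim difference was -0.14 ± 0.32 (SE; adjusted p = 0.8292, edgeR). Region explained 92.2% of the variance of the second surrogate variable, so region and that variable can hardly be told apart in that fit.

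**Figure D2:**
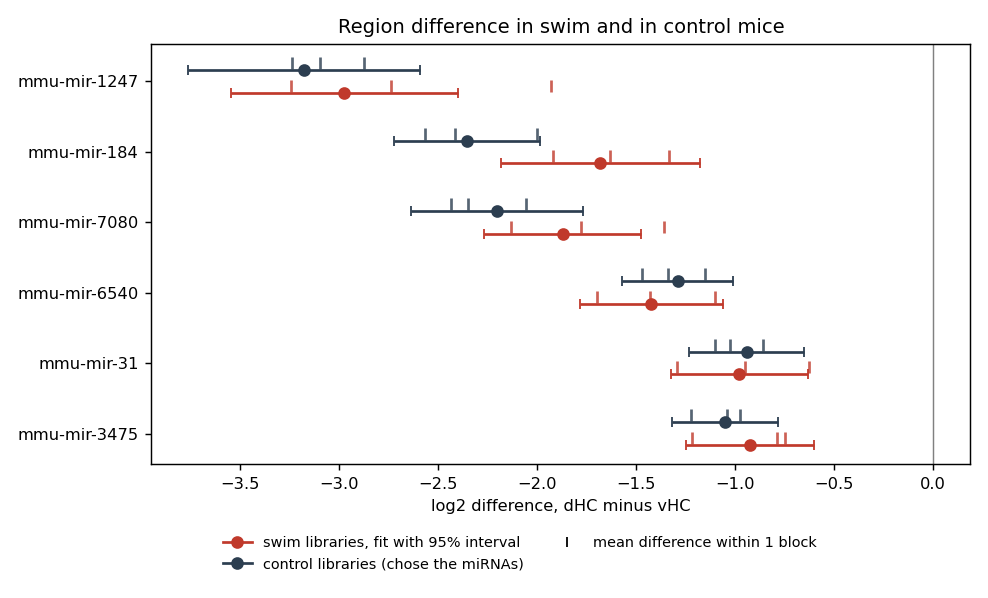
Log2 difference, dHC minus vHC, of each of the 6 miRNAs in swim libraries (red) and control libraries (dark), with points and 95% intervals from the edgeR fits and ticks for the difference of mean log2(CPM + 1) within each block. All points and ticks lie under 0, from -3.24 for mmu-mir-1247 in block 3 to -0.63 for mmu-mir-31 in swim mice of block 3. The control libraries chose the miRNAs, so the sign of the dark points and ticks is no separate evidence.

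In the order of the control differences over 440 entries, the members took ranks 1 (mmu-mir-1247), 2 (mmu-mir-184), 3 (mmu-mir-7080), 5 (mmu-mir-6540), 8 (mmu-mir-3475) and 12 (mmu-mir-31). The values of mmu-mir-184 and mmu-mir-7080, of mmu-mir-6540 and mmu-mir-3475, and of mmu-mir-3475 and mmu-mir-31 were each within the other's 95% interval. The 3 most negative entries outside the 6 were mmu-mir-200b at -1.54 ± 0.20 (SE), mmu-mir-200c at -1.13 ± 0.19 (SE) and mmu-mir-1224 at -1.12 ± 0.22 (SE), all more negative than the value of mmu-mir-31, -0.94. In swim mice mmu-mir-200b was at -1.37 ± 0.16 (SE; adjusted p = 1.107e-05, edgeR) and mmu-mir-200c at -0.95 ± 0.17 (SE; adjusted p = 0.001024, edgeR). The third, mmu-mir-1224, was at -0.02 ± 0.40 (SE; adjusted p = 0.9795, edgeR). In swim mice mmu-mir-1247, mmu-mir-7080, mmu-mir-184 and mmu-mir-6540 were, in this order, the 4 entries lowest in dHC, and mmu-mir-31 and mmu-mir-3475 were at ranks 13 and 15.

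**Figure D3:**
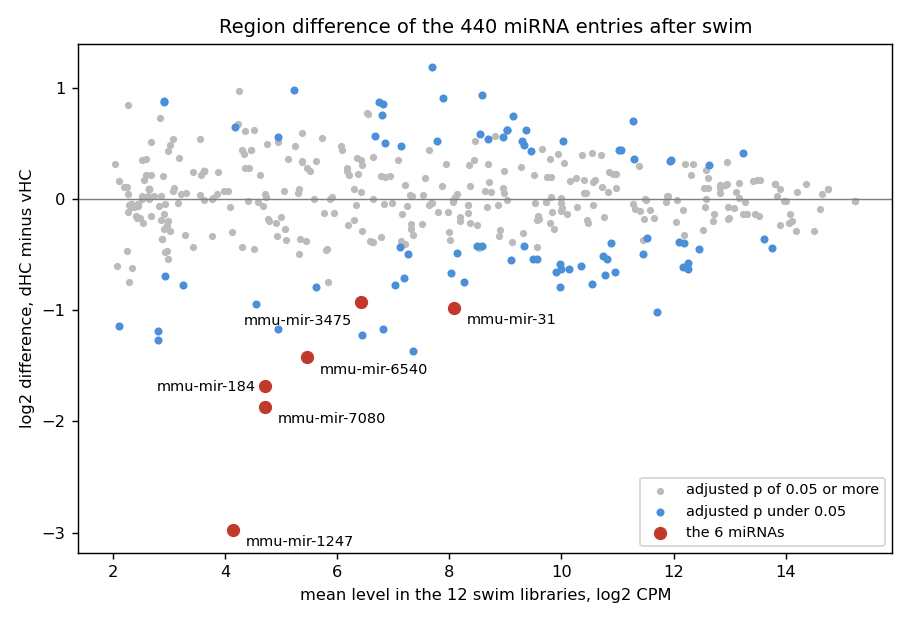
Log2 difference, dHC minus vHC, against the mean level (log2 CPM) of the 440 miRNA entries tested in the 12 swim libraries, with the 6 miRNAs in red and other entries at an adjusted p under 0.05 in blue. The 6 miRNAs lie between -0.93 and -2.97, and the median of all entries is -0.0020.

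For each member the entries with the most similar pattern over the 26 libraries were ranked by Pearson's r of log2 CPM after block means were removed, as a description: the points share 2 regions, so r mostly reads the region difference. Among the 3 nearest entries of mmu-mir-1247 were mmu-mir-7080 (r = 0.939), mmu-mir-6540 (r = 0.930) and mmu-mir-184 (r = 0.919). The nearest entry of mmu-mir-184 was mmu-mir-7080 (r = 0.947), and both had mmu-mir-383 among their 3 nearest (r = 0.938 and 0.925). The nearest of mmu-mir-6540 was mmu-mir-3475 (r = 0.954), and both had mmu-mir-433 among their 3 nearest (r = 0.928 and 0.947). The 3 nearest of mmu-mir-31 were not members: mmu-mir-592 (r = 0.898), mmu-mir-429 (r = 0.896) and mmu-mir-200a (r = 0.889).
Once the means of group and block were both removed, r over the 15 pairs of members ranged from -0.496, for mmu-mir-31 and mmu-mir-3475, to 0.636, for mmu-mir-184 and mmu-mir-7080, with a median of 0.080. Of the 15 pairs, 8 were positive. A group held 2 libraries in each block, except control vHC with 4 in block 1. The r values therefore rest on few independent values, and a common direction within a group was not tested.

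The change after swim was small beside the region difference of the fits with block. In the fit with 2 surrogate variables, which gave the swim change, this did not hold for mmu-mir-3475. Its region difference there was -0.14 in swim and -0.33 in control mice, and its swim change in vHC was -0.13 (95% interval -0.34 to 0.075). In vHC the log2 difference, swim minus control, in the fit with 2 surrogate variables was between -0.33 (mmu-mir-1247, 95% interval -0.77 to 0.10) and 0.0015 (mmu-mir-31, 95% interval -0.22 to 0.22). In dHC it was between -0.22 (mmu-mir-1247, 95% interval -0.97 to 0.54) and 0.44 (mmu-mir-184, 95% interval 0.0065 to 0.88). The mean level of mmu-mir-184 in dHC was 8.38 ± 2.90 CPM (SD, n = 6) in control and 12.6 ± 4.90 CPM (SD, n = 6) in swim mice, and these groups overlapped. The other 11 of the 12 intervals held 0. No test is given, since the control libraries had chosen the miRNAs, and the intervals do not show that the levels stayed the same.

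mmu-mir-1247 lies at the Dio3 end of the imprinted Dlk1-Dio3 domain, which carries a large group of miRNAs expressed from the maternal chromosome in brain. Of 45 listed miRNAs of that group, all were tested in swim mice, and 21 were called lower in dHC and 1 higher, beside 12% of all entries called lower. Their median log2 difference was -0.39, against -0.0020 over all 440 entries, and 43 of the 45 were negative. The 3 with the smallest p were mmu-mir-370 at -0.63 ± 0.11 (SE), mmu-mir-409 at -0.54 ± 0.10 (SE) and mmu-mir-433 at -0.68 ± 0.13 (SE). The 1 called higher, looked up after its value was seen, was mmu-mir-299a at 0.50 ± 0.15 (SE; adjusted p = 0.024319, edgeR). With library size taken over the whole table except its tRNA end entries, 15 were called lower and 0 higher. Under the other scalings 20 or 21 were called lower and 1 higher.
Of the 45, 43 could be matched to a position, all on the strand opposite to mmu-mir-1247 and between 534.3 kb (mmu-mir-410) and 714.4 kb (mmu-mir-770) away from it. Their differences were smaller than that of mmu-mir-1247 in each case.

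**Figure D4:**
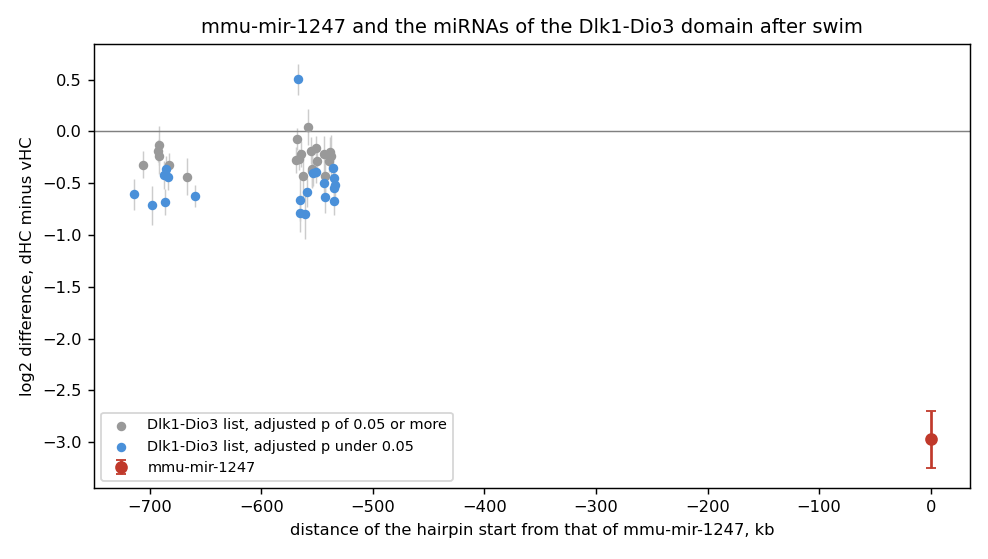
Log2 difference, dHC minus vHC, in swim mice (vertical axis, bars are ± SE) against the distance in kb from the hairpin of mmu-mir-1247, for that miRNA (red) and 43 miRNAs of the Dlk1-Dio3 domain (blue where the adjusted p was under 0.05, grey otherwise). The domain's miRNAs lie 534.3 to 714.4 kb away with a median near -0.39 over the list, and mmu-mir-1247 is at -2.97.

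Markers of cell types also differed between the regions in swim mice. Levels of bulk tissue cannot tell fewer cells of a type from less RNA per cell. All 5 of the mir-200 family, known from epithelia and from olfactory and endocrine cells, were called lower in dHC, with a median log2 difference of -1.22. Their summed level was 422 to 705 CPM in swim vHC and 177 to 266 CPM in swim dHC, and in control mice 402 to 617 CPM in vHC and 128 to 328 CPM in dHC. These summed levels did not overlap by region. Taken singly, mmu-mir-200a, mmu-mir-200b and mmu-mir-200c had every vHC swim library above every dHC swim library, as the 6 miRNAs had. The same did not hold for mmu-mir-141 and mmu-mir-429.
Of 4 neuroendocrine entries, mmu-mir-7a-1, mmu-mir-7a-2 and mmu-mir-7b were called lower in dHC (-0.58, -0.63 and -0.61), and mmu-mir-375 was at 0.19 ± 0.17 (SE). The summed level of the 4 was 15030 to 21693 CPM in swim vHC and 9071 to 16069 CPM in swim dHC, so these ranges overlapped, and 12915 to 24318 CPM in control vHC and 7363 to 12768 CPM in control dHC.
All 3 oligodendrocyte entries were called higher in dHC, with a median of 0.70 and a summed level of 4578 to 6941 CPM in swim dHC and 3638 to 4714 CPM in swim vHC. In control mice these were 4329 to 7617 CPM in dHC and 3321 to 4939 CPM in vHC.
Of 5 entries of choroid plexus and ciliated cells, 3 were called higher in dHC: mmu-mir-449a (0.88), mmu-mir-34b (0.52) and mmu-mir-34c (0.61). When library size was taken over the whole table except its tRNA end entries, 1 of the 5 was called, and DESeq2 called 4. Their summed level was 2457 to 4594 CPM in swim dHC and 2358 to 3243 CPM in swim vHC, and 3086 to 5935 CPM in control dHC and 2164 to 3280 CPM in control vHC.
None of the 8 neuronal, 5 microglial and immune, 3 endothelial and mural and 4 red blood cell entries was called in either direction in edgeR, under the other 3 scalings or by DESeq2. At an unadjusted p under 0.05 there were 2 of these 20, the red blood cell entries mmu-mir-486a (-0.40) and mmu-mir-486b (-0.38). Of 5 hindbrain and spinal cord entries 2 were tested and 1 was called higher in dHC. Under DESeq2's size factors 2 were called, and 0 with library size over the whole table except its tRNA end entries. The part of these cell types in the region difference of the 6 miRNAs was not tested.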

How the data were processed

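RNA was extracted with Trizol from the dHC and vHC of both hemispheres. Total RNA was the input for Nextflex v3 small RNA libraries, made in 3 batches, each with both regions and both conditions. The block term of the fits is the processing block of the labels. Whether these blocks are the library batches is not stated. Per the study's methods, the authors trimmed adapters with cutadapt (error rate 0.05, minimum length 18), collapsed reads with the same sequence and molecular tag and assigned them with Sports 1.0. The processing notes name GRCm38. The deposited values are expected counts per annotated RNA, without normalization, and 70.5% of all values in the table, zeros included, were exact whole numbers. All columns could be matched to a sample.

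Expected counts were rounded. The miRNA entries of a library were summed for its size, with TMM scaling. The region test used the 12 swim libraries, filterByExpr (minimum count 10, minimum total 15), block as a term and the quasi-likelihood test of edgeR, adjusted by Benjamini-Hochberg over 440 entries at 0.05. The same fit on the 14 control libraries gave values only. Swim minus control was fitted on 26 libraries with region, stress, their interaction and 2 surrogate variables, the design of the study's methods, on the 463 entries that passed the filter over all libraries. Levels are TMM-normalized CPM, and differences within blocks are on the log2(CPM + 1) scale. Intervals are at 95%. Because a count is a distinct pair of sequence and tag, the depth of a library limits the precision for rare miRNAs, and fitted standard errors include this counting error.

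The members and lists were chosen with earlier results of these data known. The miRNAs named were the 6 members, the 3 other entries most negative in control mice, the 3 entries nearest to each member by correlation, seed relatives, entries within 50 kb, and the 3 smallest p of each list. Tools were R 4.3.3, edgeR 4.0.16, limma 3.58.1, sva 3.50.0, DESeq2 1.42.0, Python 3.11.15 and matplotlib 3.10.9. Alternatives changed the scaling, tool, filter, block term, surrogate variables, rounding and libraries.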

Additional observations from a re-analysis of the deposited data

How the results depend on the processing

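The region difference of the 6 miRNAs in swim mice kept its direction in every alternative tried, and all 6 stayed under the threshold except mmu-mir-3475 with 2 surrogate variables (log2 difference -0.14, adjusted p = 0.8292, edgeR), which left 5 called. In that fit the median of all entries moved to -0.20, and the swim values of mmu-mir-7080 and mmu-mir-31 moved to -3.83 and -2.02. Called entries, 87 with block, numbered 44 with no block term, 54 without block 2 and 34 without block 3, and between 63 and 105 when 1 swim library was left out, with 6 members called each time. The split of lower and higher entries, 53 and 34, was 56 and 52 with DESeq2, 44 and 54 with no filter on low counts, 43 and 16 with 2 surrogate variables, 34 and 10 with no block term and 27 and 7 without block 3. With 2 surrogate variables the control values moved to -2.83 for mmu-mir-184, -4.12 for mmu-mir-7080, -2.16 for mmu-mir-31 and -0.33 for mmu-mir-3475. The cause of these changes was not tested. Leaving out control dHC library 24, chosen after seeing the data, moved no control value of the 6 by more than 1 SD. Depth limits mmu-mir-1247 most, with 60 counts over 6 swim dHC libraries. No paired analysis was possible because the groups share no library numbers and no label ties libraries of both regions to 1 mouse. Consecutive library numbers were not read as pairs.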
